A study of Homo sapiens with 6 samples.

Results

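The BCL2 family decides at the outer mitochondrial membrane whether a cell starts the intrinsic programme of apoptosis. BCL2, BCL2L1 (which encodes BCL-xL) and MCL1 hold the programme back, BAX and BAK1 form the pores that release cytochrome c, and the BH3-only proteins BCL2L11 (BIM), PMAIP1 (NOXA) and BBC3 (PUMA) tip the balance towards death by binding the protective members. Further downstream, XIAP blocks active caspases, and BIRC5 (survivin), an inhibitor of apoptosis protein by sequence, works mainly in the chromosomal passenger complex that steers mitosis. Neuroblastoma cells are known to lean on BCL2, BCL-xL and MCL1 for survival. Here these 10 genes, listed by symbol with earlier results of these data known, were followed in 6 RNA-seq samples of the human neuroblastoma cell line SK-N-BE(2), an established MYCN-amplified line. They are 10 of the 58302 genes in the tables, and all 10 passed the level filter of a mean of at least 1 FPKM (fragments per kilobase of exon, scaled for sequencing depth) that 14462 genes passed.

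Of the samples, 3 were transfected with the negative control siRNA (NC) and 3 with a small interfering RNA against PRPF19, the gene of the splicing factor Prp19 (siPrp19). All came from the same line and none was left untransfected. The sample labels give 72 h of transfection, while the study's methods give a shorter time. The comparison of siPrp19 with NC asks how the cells' RNA levels differ after transfection with an siRNA that lowers PRPF19 RNA. The study chose a single siRNA for the assays that followed its knockdown check. Effects of lower Prp19 and other effects of that siRNA's sequence cannot be told apart here. The same replicate number, 1 to 3, stands on 1 sample of each group.

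Between 19058782 and 24181789 reads lay on genes in each sample, a count recovered from the steps between the FPKM values. PRPF19 had 53.1, 53.1 and 64.9 FPKM in NC replicates 1 to 3 and 21.8, 28.5 and 33.6 FPKM in the siPrp19 replicates, so the siPrp19 samples kept 41.0%, 53.6% and 51.7% of the NC sample of the same number. Deviations from the group means were shared by same-numbered samples (r across genes of 0.38, 0.57 and 0.64 for replicates 1, 2 and 3, where genes are not independent replicates). In some genes replicate 3 stood apart in both groups. DBH, the enzyme that makes noradrenaline, was at 3.49 and 3.94 FPKM in replicate 3 of NC and siPrp19 and between 26.7 and 44.2 FPKM in the other samples. It was named after its values were seen. The summed level of the 8 adrenergic markers, DBH among them, was between 2011 and 2129 FPKM with NC and between 1896 and 2438 FPKM with siPrp19. The adrenergic neuroblastoma markers PHOX2A, HAND2, GATA3, ISL1, MYCN, TH and DBH passed the level filter. Of 8 mesenchymal or Schwann-type markers, SNAI2, FN1, VIM, CD44 and S100B also passed it, and the Schwann cell factor SOX10 was listed at 0 in all 6 samples. In bulk RNA, fewer cells of a kind and less RNA per cell cannot be told apart.

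RefSeq start-site sequences (GRCh38.p14, 250 bases before the start to 50 after it) were found for 8 of the 10 genes, and 3 are shown because their genes behaved in 3 different ways in the samples: PMAIP1 was lower with siPrp19 in every pair, BBC3 was higher in every pair, and BAX hardly differed within a pair. Capitals mark matches on either strand to CACGTG (the E-box core bound by MYC proteins), GGGCGG (the GC box) and TGACGT (the core of the cyclic AMP response element), motifs picked after the sequences were seen. In these 3 windows no match overlaps another. The table holds 1 start for each of these 3 genes.
PMAIP1, chr18:59899746-59900045, plus strand: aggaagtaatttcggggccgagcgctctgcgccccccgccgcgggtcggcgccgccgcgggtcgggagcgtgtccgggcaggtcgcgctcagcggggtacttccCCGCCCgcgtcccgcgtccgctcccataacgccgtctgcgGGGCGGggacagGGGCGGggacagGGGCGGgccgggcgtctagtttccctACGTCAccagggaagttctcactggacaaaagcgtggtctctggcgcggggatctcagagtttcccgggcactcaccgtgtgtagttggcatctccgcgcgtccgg
BBC3, chr19:47232618-47232917, minus strand: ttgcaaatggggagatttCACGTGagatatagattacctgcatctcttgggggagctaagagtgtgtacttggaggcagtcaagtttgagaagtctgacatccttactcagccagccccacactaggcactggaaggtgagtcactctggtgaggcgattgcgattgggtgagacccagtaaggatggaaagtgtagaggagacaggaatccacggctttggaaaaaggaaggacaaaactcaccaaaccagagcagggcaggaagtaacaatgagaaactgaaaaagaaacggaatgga
BAX, chr19:48954625-48954924, plus strand: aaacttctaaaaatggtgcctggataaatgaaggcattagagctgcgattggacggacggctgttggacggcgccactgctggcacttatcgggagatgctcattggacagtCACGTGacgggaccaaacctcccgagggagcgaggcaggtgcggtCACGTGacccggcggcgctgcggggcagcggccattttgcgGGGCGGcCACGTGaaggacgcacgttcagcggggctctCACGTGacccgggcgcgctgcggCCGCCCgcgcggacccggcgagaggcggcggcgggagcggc
The BAX window holds CACGTG 4 times, the BBC3 window 1 time and the PMAIP1 window 0 times, against 7.26% of all 35116 such windows that hold it at all. GGGCGG occurs 4 times in the PMAIP1 window, 2 times in that of BAX and 0 times in that of BBC3, and 45.0% of all windows hold it. TGACGT is found 1 time in the PMAIP1 window and in neither of the others, with 7.98% of all windows holding it. These matches describe the letters of the windows and say nothing of binding in these cells.

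The 10 genes spanned a wide range of levels. In the NC samples MCL1 was highest at 67.5 ± 8.51 FPKM (SD, n = 3), above 96.3% of the tested genes by its mean over all samples. BIRC5 followed at 35.2 ± 2.34 FPKM and BAX at 16.6 ± 3.74 FPKM (SD, n = 3 each). The NC values of these 3 genes did not overlap with one another or with those of any gene below them. A middle group of 6 genes came next, BCL2L11 (10.0 ± 1.05 FPKM), BAK1 (9.22 ± 1.54 FPKM), BCL2L1 (8.79 ± 2.68 FPKM), PMAIP1 (8.75 ± 2.56 FPKM), BCL2 (7.36 ± 0.730 FPKM) and XIAP (6.40 ± 0.753 FPKM; SD, n = 3 each). Every neighbour in that order overlapped with the next in its NC values, so the order of neighbours was not beyond the spread between replicates. BCL2 was still above XIAP in each of the 6 samples. Some genes further apart in the order were clear of each other, as all NC values of BCL2L11 and BAK1 lay above those of BCL2 and XIAP. BBC3 was lowest at 2.29 ± 0.482 FPKM (SD, n = 3), below every NC value of XIAP. FPKM is divided here by the merged length of all annotated exons of a gene, and each level is a sum over its transcripts. Where the cells use only part of those exons, a level is understated, by a factor that may differ between genes. The order of levels depends partly on these lengths. MCL1 and BCL2L1 are known to be spliced into long protective and short death-promoting forms, which gene-level values do not separate.

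**Figure D1:**
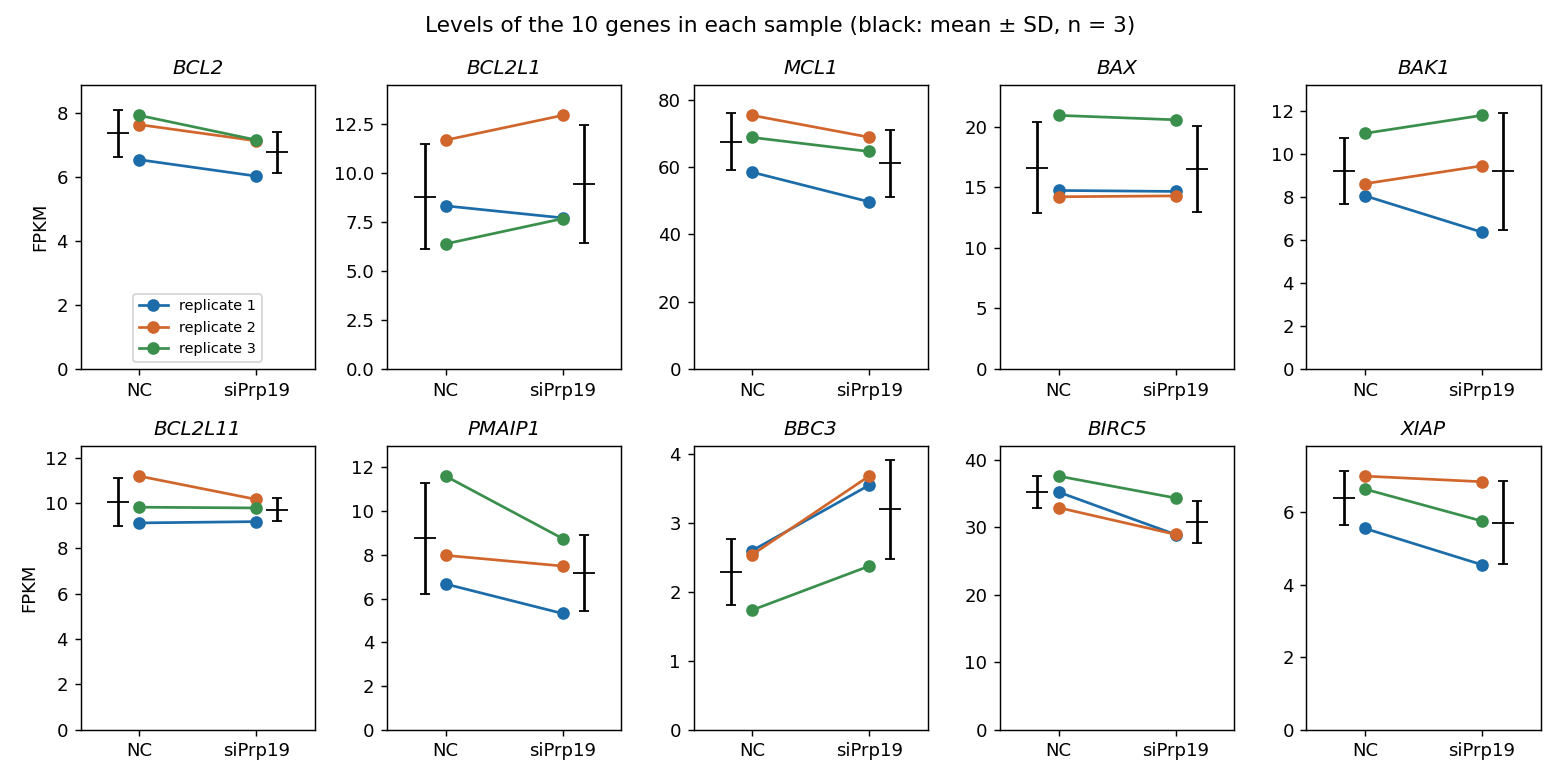
FPKM (vertical axes, each from 0) of the 10 genes in the 3 NC and 3 siPrp19 samples, with a line joining samples of the same replicate number and the mean ± SD in black. The lines of BCL2, MCL1, PMAIP1, BIRC5 and XIAP all slope down, those of BBC3 all slope up, and those of BAX are flat.

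Among the protective genes, MCL1 and BCL2 were slightly lower with siPrp19 in each pair and BCL2L1 was not. MCL1 (ENSG00000143384, minus strand of chromosome 1, 150574551 to 150579738 on GRCh38) encodes a short-lived protein that depends on steady supply of its mRNA. It had 58.4, 75.3 and 68.8 FPKM in NC replicates 1 to 3 and 49.7, 68.8 and 64.6 FPKM with siPrp19, or 85.0%, 91.4% and 93.9% of the NC sample of the same number. Each siPrp19 sample was below its own NC sample, but the groups overlapped, since the lowest NC value (replicate 1) was under those of siPrp19 replicates 2 and 3. The log2 change was −0.15 (standard error 0.17) by limma, a linear model fitted to every tested gene. A second fit compared siPrp19 with NC within replicate numbers, called the block here. Blocking on the replicate number narrowed the standard error to 0.05 (95% confidence interval −0.27 to −0.03), with a Benjamini-Hochberg adjusted p of 0.257 over all tested genes.

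BCL2 (ENSG00000171791, minus strand of chromosome 18, 63123346 to 63320128) had 6.53, 7.63 and 7.92 FPKM with NC and 6.02, 7.12 and 7.15 FPKM with siPrp19. Within pairs the level was 92.2%, 93.4% and 90.3% of NC, the narrowest range of any gene here that was lower in all 3 pairs, while the groups overlapped through the low replicate 1. The log2 change was −0.12 (limma standard error 0.14, and 0.05 with the block, adjusted p = 0.365). BCL2L1 (ENSG00000171552, minus strand of chromosome 20, 31664452 to 31723989) had 8.31, 11.7 and 6.38 FPKM with NC and 7.70, 12.9 and 7.66 FPKM with siPrp19. It was lower in pair 1 (92.6% of NC) and higher in pairs 2 and 3 (111% and 120% of NC), and replicate 2 was the highest sample of both groups. Its log2 change of 0.10 came with a standard error of 0.09 even with the block (limma adjusted p = 0.612). The antisense RNA gene ABALON, at most 0.507 FPKM in any sample, shares 43.0% of the exon bases of BCL2L1, where reads of the 2 genes cannot be told apart without strand. How reads on those bases were counted is not known, and the low value of ABALON does not settle it. If they were left out, the level of BCL2L1 is understated.

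For the pore-forming genes the pairs were mixed, and the values of BAX within a pair were close to equal. BAX (ENSG00000087088, plus strand of chromosome 19, 48954815 to 48961798) had 14.7, 14.2 and 20.9 FPKM in NC replicates 1 to 3 and 14.7, 14.3 and 20.6 FPKM in the siPrp19 replicates. The siPrp19 samples thus held 99.5%, 100.5% and 98.2% of the NC sample of the same number, while replicate 3 was well above replicates 1 and 2 in both groups. The log2 change was −0.01, with a 95% confidence interval of −0.13 to 0.11 by limma with the block and of −0.52 to 0.50 without it. BAK1 (ENSG00000030110, minus strand of chromosome 6, 33572547 to 33580293) had 8.06, 8.63 and 10.97 FPKM with NC and 6.37, 9.46 and 11.8 FPKM with siPrp19. It was lower in pair 1 (79.0% of NC) and higher in pairs 2 and 3 (109.65% and 107.6%), so its pairs did not move one way, and its interval with the block ran from −0.31 to 0.25.

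The BH3-only genes did not share a direction: BBC3 was higher and PMAIP1 lower in every pair, and BCL2L11 was mixed. BBC3 (ENSG00000105327, minus strand of chromosome 19, 47220822 to 47232766), whose protein PUMA binds all protective family members, had 2.60, 2.54 and 1.73 FPKM with NC and 3.54, 3.68 and 2.37 FPKM with siPrp19. Each siPrp19 sample was higher than its NC partner, at 136.5%, 144.9% and 136.8% of it. The groups overlapped because replicate 3 was the lowest sample in both, and its siPrp19 value lay under the NC values of replicates 1 and 2. The log2 change of 0.46 was the largest of the 10 in size, with a standard error of 0.25 by limma without the block and of 0.09 with it (95% confidence interval 0.24 to 0.68, adjusted p = 0.196). These values rest on 109 to 256 reads per sample, the fewest of the 10 genes.

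PMAIP1 (ENSG00000141682, plus strand of chromosome 18, 59899948 to 59904306) encodes NOXA, which binds MCL1 above all and speeds its breakdown. It had 6.67, 7.98 and 11.6 FPKM with NC and 5.32, 7.49 and 8.75 FPKM with siPrp19, or 79.8%, 93.9% and 75.4% of the paired NC sample. All 3 pairs pointed down, to unequal extents, and the groups overlapped. The log2 change was −0.27 (limma standard error 0.26, and 0.08 with the block, 95% confidence interval −0.48 to −0.07, adjusted p = 0.239). BCL2L11 (ENSG00000153094, plus strand of chromosome 2, 111119378 to 111168447), the gene of BIM, had 9.12, 11.2 and 9.81 FPKM with NC and 9.18, 10.2 and 9.78 FPKM with siPrp19. The only pair apart was number 2, at 90.8% of NC, with 100.6% and 99.7% in pairs 1 and 3. The long non-coding RNA gene MIR4435-2HG, on the opposite strand, shares 10.9% of the exon bases of BCL2L11 and reached 1.85 FPKM. How reads on those bases were counted is not known either.

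Both inhibitors of apoptosis protein genes were lower with siPrp19 in each pair. BIRC5 (ENSG00000089685, plus strand of chromosome 17, 78214186 to 78225636) had 35.2, 32.9 and 37.6 FPKM with NC and 28.9, 28.9 and 34.3 FPKM with siPrp19, or 82.1%, 88.0% and 91.4% of the paired NC sample. The groups overlapped by 1 value, siPrp19 replicate 3, which lay above NC replicate 2. The log2 change was −0.20 (limma standard error 0.13, narrowed to 0.05 by the block, 95% confidence interval −0.33 to −0.07, adjusted p = 0.217). XIAP (ENSG00000101966, plus strand of chromosome X, 123859724 to 123913979) had 5.56, 7.003 and 6.64 FPKM with NC and 4.55, 6.85 and 5.76 FPKM with siPrp19, which was 82.0%, 97.8% and 86.7% of NC within pairs. Every pair was lower to an unequal extent, and the groups overlapped. Its log2 change of −0.17 had a standard error of 0.07 with the block (limma adjusted p = 0.346). The pseudogenes of XIAP and BAK1 reached at most 0.804 FPKM in any sample.

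**Figure D2:**
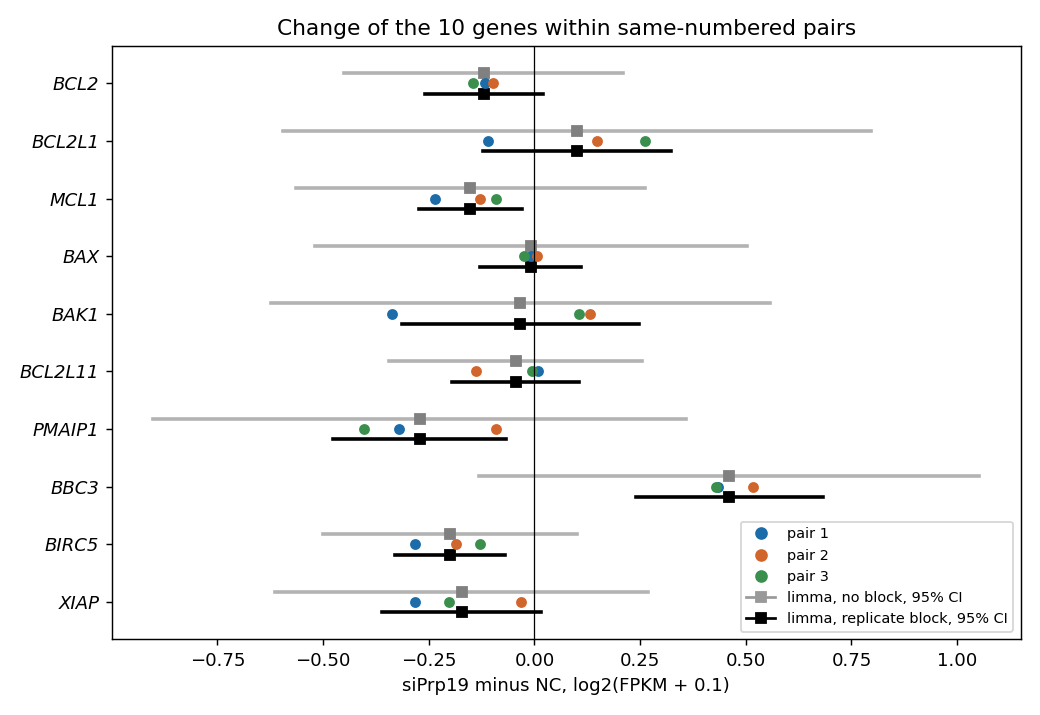
Difference siPrp19 minus NC on the log2(FPKM + 0.1) scale (horizontal axis) for each gene, with coloured points for the 3 pairs and squares with bars for the limma estimate and its 95% confidence interval, grey without a block and black after blocking on the replicate number. The grey bars cross 0 for all 10 genes, and the black bars of MCL1, PMAIP1, BBC3 and BIRC5 do not.

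Over the list, 5 genes were lower with siPrp19 in 3 of 3 pairs (BCL2, MCL1, PMAIP1, BIRC5 and XIAP), 1 was higher in 3 of 3 (BBC3) and 4 were mixed. Among all tested genes, 21.3% were lower and 19.2% higher in 3 of 3 pairs. Of the 5 genes that encode an inhibitor of cell death or of caspases, 4 were among those lower in every pair, and BCL2L1 was mixed. PMAIP1, which promotes death, was lower in every pair as well. Whether the inhibitors differed from the other genes of the list was not tested. The median log2 change of the 10 genes was −0.08, beside −0.0040 for all tested genes. In none of the 10 did the groups stand clear of each other, as they did for 5.61% of tested genes, and the exact two-sided permutation p of the 10 genes was between 0.20 (BIRC5) and 1.0 (BAK1), where 3 samples against 3 cannot give less than 0.10.

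No tested gene passed the adjusted threshold by limma, either in the main fit or with the block, so these calls could not set the 10 genes apart. Even PRPF19, the targeted gene, had a limma adjusted p of 0.9999 without the block. With the block it had 0.190, which was the lowest value of any tested gene. Without the block, 0 of the 10 genes had an adjusted p under 0.05 (background 0% of tested genes) and 0 had an unadjusted p under 0.05 (background 1.56%). Once the block was added, again 0 had an adjusted p under 0.05 (background 0%), and 4 had an unadjusted p under 0.05, against a background of 15.7% in either direction. These were MCL1, PMAIP1 and BIRC5, lower (background 8.77%), and BBC3, higher (background 6.89%). Leaving out replicate 1, 2 or 3, the fit with the block gave log2 changes of −0.11, −0.16 and −0.18 for MCL1, of −0.12, −0.13 and −0.11 for BCL2, of −0.16, −0.21 and −0.23 for BIRC5, and of −0.12, −0.24 and −0.16 for XIAP. For BBC3 they were 0.47, 0.43 and 0.48, and for PMAIP1 −0.25, −0.36 and −0.21.

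The recovered reads were also fitted by limma voom with the block, which called 2 of the 10 genes against a background of 7.01% in either direction. There BBC3 rose (log2 change 0.48, adjusted p = 0.0226, background of genes that rose 2.62%) and BIRC5 fell (log2 change −0.20, adjusted p = 0.0294, background of genes that fell 4.39%). In that fit, MCL1 had an adjusted p of 0.0804 and PMAIP1 of 0.0777. Without replicate 3 the same fit gave adjusted p-values of 0.0288 for BBC3, 0.00783 for BIRC5 and 0.0313 for MCL1, and without replicate 1 of 0.169 for BBC3 and 0.432 for BIRC5, while without replicate 2 they were 0.126 and 0.105.

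Most of the variation of these genes followed the replicate number. Splitting the sum of squares of log2(FPKM + 0.1) over the 6 samples, the replicate number, with 2 degrees of freedom, took more than the comparison of siPrp19 with NC, with 1, for 9 of the 10 genes. The exception was BIRC5, with 50.4% for the siRNA and 44.5% for the replicate number. BBC3 was next, with 42.9% for the siRNA and 56.8% for the replicate number. For BAX the replicate number took 99.9%, and for BCL2L1 it took 93.3%. The median share of the siRNA was 15.5% for the 10 genes and 5.68% for all tested genes, and the median share of the replicate number was 81.4% and 80.9%.

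**Figure D3:**
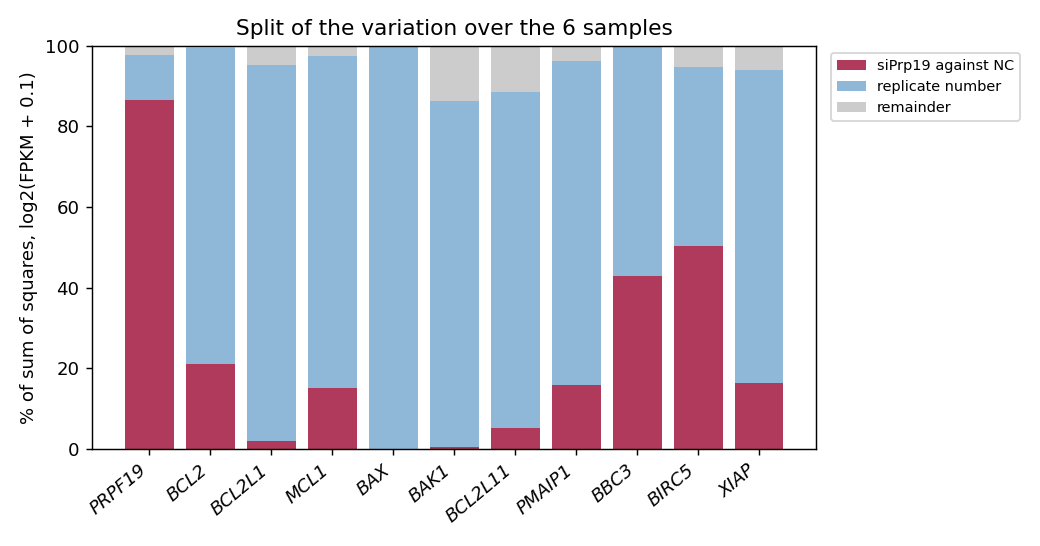
Share of the sum of squares over the 6 samples (vertical axis, in percent, on the log2(FPKM + 0.1) scale) that went with siPrp19 against NC, with the replicate number or with neither, for PRPF19 and the 10 genes. PRPF19 has 86.6% with the siRNA, BIRC5 and BBC3 have the most among the 10 genes, and BAX and BAK1 have next to none.

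Ratios between genes within a sample do not depend on a scaling factor between samples. Their size does depend on the annotated exon length by which each gene was divided. BAX to BCL2 was 2.26, 1.87 and 2.65 in NC replicates 1 to 3 and 2.44, 2.01 and 2.88 with siPrp19, higher in 3 of 3 pairs, with means of 2.26 ± 0.391 and 2.44 ± 0.436 (SD, n = 3 each). The difference between the means was smaller than the spread between replicates. The sum of BAX and BAK1 over the sum of BCL2, BCL2L1 and MCL1 was 0.311, 0.241 and 0.384 with NC and 0.332, 0.267 and 0.408 with siPrp19, also higher in each pair by less than the replicates differed. MCL1 made up 79.7%, 79.6% and 82.8% of the summed FPKM of the 3 protective genes with NC and 78.4%, 77.4% and 81.3% with siPrp19. BCL2L1 made up 11.3%, 12.3% and 7.68% of it with NC and 12.2%, 14.5% and 9.65% with siPrp19, a higher share in each pair. The share of BCL2 stayed between 8.01% and 9.53% in all samples. These sums leave out BCL2L2, a protective gene that is not among the 10 and had a mean of 10.8 FPKM with NC. They also take the BCL2L1 level as listed, which may lack reads on the bases shared with ABALON.

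The rest of the cell death machinery was described from lists of related genes. No gene in them had an adjusted p under 0.05 by limma with or without the block, as for all tested genes. Of 9 further BCL2 family genes, 5 passed the level filter, and voom with the block called 0 of them (background 7.01% of tested genes). BCL2L2 (BCL-w), another protective member, was higher in 3 of 3 pairs, with 10.8 ± 1.64 FPKM with NC and 11.9 ± 2.01 FPKM with siPrp19 (SD, n = 3 each, log2 change 0.13). The effector-like BOK and the BH3-only genes BAD, BID and BMF had mixed pairs, with log2 changes between −0.09 (BMF) and −0.02 (BAD). BMF, at 21.2 ± 1.74 FPKM with NC and 20.0 ± 1.83 FPKM with siPrp19 (SD, n = 3 each), had a higher level than the 3 BH3-only genes BCL2L11, PMAIP1 and BBC3 in every sample. Of 8 other inhibitor of apoptosis genes and their antagonists, 4 passed the filter, and voom with the block called 1 (background 7.01%). BIRC2 (cIAP1) was lower in each pair, with 18.2 ± 2.77 FPKM with NC and 15.3 ± 3.05 FPKM with siPrp19 (SD, n = 3 each, log2 change −0.25), and had an adjusted p of 0.204 by limma with the block and of 0.0113 by voom with the block.

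Of 9 apoptosome and caspase genes, 7 passed the filter, with 4 lower and 1 higher in 3 of 3 pairs (background 21.3% and 19.2% of tested genes). The initiator CASP9 had 1.61 ± 0.0687 FPKM with NC and 1.92 ± 0.157 FPKM with siPrp19 (SD, n = 3 each, log2 change 0.24). The NC and siPrp19 values of CASP9 did not overlap, as was so for 5.61% of tested genes, and they rested on 146 to 250 reads per sample. Its adjusted p was 0.441 by limma with the block and 0.255 by voom with the block. Of 8 death receptor and adaptor genes, 6 passed the filter, 2 of them lower in every pair (background 21.3%) and both called by voom with the block (background of genes that fell 4.39%). The larger difference was that of RIPK1, a kinase of the tumour necrosis factor receptor pathway, with 2.62 ± 0.922 FPKM with NC and 1.94 ± 0.819 FPKM with siPrp19 (SD, n = 3 each, log2 change −0.43, adjusted p = 0.215 by limma with the block and 0.0334 by voom with the block).

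The partners of BIRC5 in the chromosomal passenger complex had smaller log2 changes than BIRC5. AURKB had a log2 change of −0.09, INCENP of −0.06 and CDCA8 of −0.02. Their adjusted p-values were between 0.465 and 0.912 by limma with the block. AURKB and INCENP were lower in 3 of 3 pairs, as BIRC5 was, and CDCA8 had mixed pairs. Whether BIRC5 differed from its partners was not tested. Of 8 mitotic genes, 5 were lower and 1 (BUB1, log2 change 0.07) higher in 3 of 3 pairs (background 21.3% and 19.2% of tested genes). Voom with the block called 2, both lower (background of genes that fell 4.39%). The median log2 change of the 8 mitotic genes was −0.14. The lowest was that of CDK1, the kinase that starts mitosis, at −0.24, with 34.9 ± 0.816 FPKM with NC and 29.7 ± 1.82 FPKM with siPrp19 (SD, n = 3 each). The groups of CDK1 did not overlap (background 5.61%), and its adjusted p was 0.202 by limma with the block and 0.00780 by voom with the block. Markers of other cell states were set beside these values. The 8 adrenergic markers had a median log2 change of −0.0050, with 2 lower and 0 higher in 3 of 3 pairs, and of those 2 TH had the lower value at −0.08. FN1, which encodes fibronectin and stands in the mesenchymal list, had a log2 change of −0.35. Of the 5 tested genes of that list, 4 were lower in 3 of 3 pairs (background 21.3%). Voom with the block called 3, all lower (background of genes that fell 4.39%). The summed level of the 8 genes of the list was between 248.5 and 327.7 FPKM with NC and between 245.2 and 312.5 FPKM with siPrp19. The part of these markers in the values of the 10 genes was not tested.

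**Figure D4:**
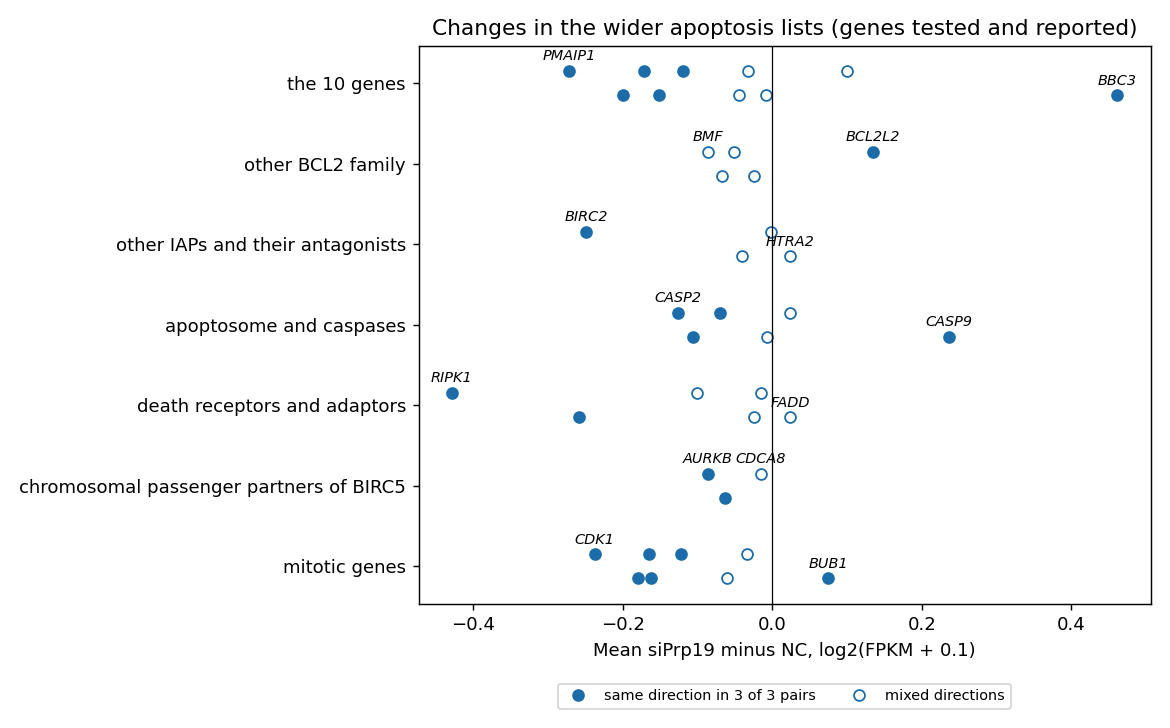
Mean difference siPrp19 minus NC on the log2(FPKM + 0.1) scale (horizontal axis) for the tested genes reported here from 7 lists, the 10 genes in the top row, filled where all 3 pairs had the same direction. BBC3 lies furthest to the right of all genes shown and RIPK1 furthest to the left.

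For the 2 genes here that varied most over the samples at a mean of at least 5 FPKM, the nearest profiles among 7912 other genes at that level were looked up over the 6 samples, by the root mean square difference of the centred log2 values. Nearest to BCL2L1 were DNAJB1, which encodes a heat shock protein (0.0417 log2 units), PAK4 (0.0453) and FAM53C (0.0522). Like BCL2L1, all 3 were highest in replicate 2 and lowest in NC replicate 3. Among the 3 nearest to PMAIP1 were TXNRD1, which encodes thioredoxin reductase (0.0707), and PPP2CA (0.0875), both lowest in siPrp19 replicate 1 and highest in NC replicate 3. These profiles carry the differences between replicate numbers as well as that between the groups.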

How the data were processed

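RNA was sequenced from 3 NC and 3 siPrp19 samples of SK-N-BE(2) cells, grouped by the treatment label. The authors deposited 1 table of FPKM per sample, and the submitters' processing notes name HISAT2 2.0.5, featureCounts 1.5.0-p3 and hg38. The annotation and the strand setting are not given in the sources used here. Symbols, positions and exon lengths were taken from GENCODE release 29 on GRCh38, in which 58039 of the 58302 identifiers were found. FPKM times exon length gave whole reads in all samples (within 0.05 of a read) for 95.9% of the 37521 genes above 0, the 10 genes included. The deposited values already carried equal median-of-ratios factors, so no further scaling was applied.

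Testing was limited to genes averaging 1 FPKM or more, on log2(FPKM + 0.1), a scale that understates changes of low genes, with limma 3.58.1 in R 4.3.3 (eBayes with trend) and Benjamini-Hochberg adjustment over all of them. The script was tested on simulated data. The main design had no block, as the study's methods name none, and the replicate number was used as a block in an alternative. The numbers come from the sample labels, which do not say what they mark. The deviations of same-numbered samples correlated at 0.53 on average and above 0.1 in every pair, so the numbers were taken to pair the samples. The study calls them biological replicates. Exact permutation tests used scipy 1.17.1, and tables and plots used pandas 2.3.3, numpy 2.4.6 and matplotlib 3.10.9 under Python 3.11.15.

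Alternatives were other pseudocounts, filters, scalings and moderations, voom on the recovered reads, the block, and fits without a sample or pair.

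The 10 genes, the lists and the alternatives were chosen with earlier results of these data known. Named were all 10 genes, PRPF19, the tested members of the BCL2 family and chromosomal passenger lists, and in each other list the gene with the largest fall and the largest rise among those with 3 of 3 pairs in one direction, and the 3 nearest profiles of the 2 most variable of the 10 genes. Genes outside that rule (the markers and genes listed under other observations) were named after their values were seen. Counting precision follows the reads, from 109 to 7005 per sample for the 10 genes. Protein sequences were not used here, and some genes of the lists are not reported here.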

Additional observations from a re-analysis of the deposited data

How the results depend on the processing

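BCL2, MCL1, PMAIP1, BBC3, BIRC5 and XIAP kept the direction of their log2 change under each alternative that gave them a value, and values near 0 turned. BAX was 0.0054 with quantile normalization. Fits that left out 1 sample, without the block, gave −0.18 to 0.17 for BAX, −0.23 to 0.21 for BAK1, −0.15 to 0.32 for BCL2L1, −0.11 to 0.035 for BCL2L11, −0.45 to −0.05 for PMAIP1, −0.25 to −0.01 for MCL1, −0.20 to −0.04 for BCL2, −0.31 to −0.02 for XIAP, −0.28 to −0.15 for BIRC5 and 0.28 to 0.66 for BBC3. The values nearest 0 for MCL1, BCL2 and XIAP were those without siPrp19 replicate 1, and for PMAIP1 and BBC3 those without NC replicate 3. Under the block and without replicate 1, BAK1 was 0.12 by limma and by voom, and without replicate 2 BCL2L11 was 0.0021 by limma and 0.0020 by voom. The count of genes with an adjusted p under 0.05 was 0 in the main test, 1 by eBayes without trend and robust, 124 under the block with a minimum mean of 5 FPKM, and 1012 by voom under the block. Among the 10 genes it was 0 in each of these but the last, where it was 2. Voom under the block without 1 pair, added after seeing the data, gave 278 (replicate 1), 638 (replicate 2) and 1328 genes (replicate 3), and 0, 0 and 3 of the 10. The cause of these differences was not tested. The replicate block alone gave 0 for both counts and changed no call. Fits without 1 sample gave 0 for both. BBC3 was not tested at a minimum mean of 5 FPKM. It rests on 109 to 256 reads per sample.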

Other observations

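Some genes of the death receptor route and some relatives of the 10 genes were below the level filter in these cells. CASP8, the initiator caspase of that route, whose gene is often silenced in neuroblastoma, had 0.628 ± 0.127 FPKM with NC and 0.751 ± 0.230 FPKM with siPrp19 (SD, n = 3 each), and it was higher with siPrp19 in 3 of 3 pairs with overlapping groups. FAS had 0.276 ± 0.0325 and 0.305 ± 0.0601 FPKM (SD, n = 3 each). TNFRSF10A rested on 1 to 12 reads per sample and CASP10 on 7 to 21. The protective family member BCL2A1 was at 0 reads in 5 of 6 samples and at 1 read in the other, and BCL2L10 rested on 0 to 9 reads. HRK, a BH3-only gene of neurons, rested on 8 to 37 reads. BIRC3 (cIAP2) was lower with siPrp19 in 3 of 3 pairs, as BIRC2 was, at 0.743 ± 0.413 FPKM with NC and 0.587 ± 0.359 FPKM with siPrp19 (SD, n = 3 each), a difference well inside the spread between replicates. None of these genes passed the level filter, so none was tested.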
